A study of Homo sapiens with 12 samples.

Results

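The kinases that phosphorylate the alpha subunit of the translation initiation factor eIF2, and a group of ATF and C/EBP transcription factors with their cofactor NUPR1, were followed through NFE2L1 knockout and proteasome inhibition in A549 cells. The 10 genes were taken by symbol from the deposited expression table, which lists 58676 genes. They were the 4 kinase genes EIF2AK1, EIF2AK2, EIF2AK3 and EIF2AK4, the 5 factor genes ATF5, ATF6, CEBPB, CEBPG and CEBPD, and NUPR1. Each symbol matched 1 gene.

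Phosphorylation of eIF2 alpha lowers general translation and favours translation of a few messages, among them those of ATF4 and ATF5, in what is called the integrated stress response. The kinases sense different conditions. EIF2AK1 (HRI) responds to heme shortage and mitochondrial stress, EIF2AK2 (PKR) to double-stranded RNA, EIF2AK3 (PERK) to unfolded protein in the endoplasmic reticulum and EIF2AK4 (GCN2) to amino acid shortage. C/EBP proteins are basic leucine zipper factors that pair with each other and, for some of them, with ATF4, and such pairs bind composite C/EBP-ATF elements. ATF6 is a membrane protein of the endoplasmic reticulum that is cut in the Golgi under stress, which frees its transcription factor domain. Proteasome inhibitors such as bortezomib are known to activate eIF2 alpha kinases.

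A549 is an established human lung adenocarcinoma line. The study used a control line, labelled Control1, and NFE2L1 KO1 and NFE2L1 KO2, lines with a knockout of NFE2L1, a transcription factor of proteasome genes. Each line received DMSO vehicle or 200 nM bortezomib for 4 h, and 2 libraries were made per group, 12 in all. How the knockout was made, whether a line is 1 clone and whether the libraries of a group came from separate cultures are not given in the sources used here. P-values therefore measure the spread between these libraries, which may be technical.

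The libraries held 13211608 to 23819258 reads assigned to genes. The unit is FPKM, which divides the fragments of a gene by its length in kilobases and by the library's assigned reads, and 3 reads over 1 kilobase correspond to 0.126 to 0.227 FPKM. NFE2L1 itself was at 72.7 to 189.4 FPKM in the control line, 8.45 to 35.8 in KO1 and 18.6 to 50.8 in KO2. Of the 5 epithelial markers, KRT7, KRT8 and KRT18 were at 111.5 FPKM or more in every library, and CDH1 and EPCAM were lower, at 1.25 to 10.6. CDKN2A, which A549 has lost, had 0 reads throughout. The leukocyte markers PTPRC and CD3E stayed at or below 0.0603 FPKM and CD14 reached 3.63, the 3 endothelial markers stayed at or below 0.2, and of the fibroblast markers COL1A1 reached 23.3, LUM 1.40, COL3A1 0.225 and PDGFRB 0.134. The part of these transcripts in the results was not tested.

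In each KO group 1 library carries the suffix R1 and 1 carries R2, and in each control group 1 carries R2 and the other has no suffix. Below, values come in the order first library (R1 or no suffix) and R2. The R2 libraries stood apart: mitochondrial genes took 12.3% to 19.3% of their reads, against 5.44% to 6.80% in the other 6. Libraries of the same suffix also deviated together across groups, so each test is given without and with the suffix as a replicate block. Fold changes are differences of log2(FPKM + 1), tested with limma over the 12194 genes whose mean FPKM was at least 1. A gene was called at a Benjamini-Hochberg adjusted p under 0.05. All 10 genes met this minimum. NUPR1 met it through its bortezomib libraries. With vehicle its mean was 0.376 FPKM in KO1, 0.415 in KO2 and 1.25 in the control line. That control mean rests on the unnumbered library at 2.23 FPKM, as the R2 library was at 0.264.

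EIF2AK1 was the most abundant of the kinase messages, with a mean of 29.6 FPKM over the 12 libraries. EIF2AK2 had a mean of 13.8 FPKM, EIF2AK3 of 6.44 and EIF2AK4 of 4.72. EIF2AK1 exceeded EIF2AK2 in 12 of 12 libraries, and EIF2AK2 exceeded EIF2AK3 in 11 of 12, the exception being the R2 control library with vehicle. EIF2AK3 and EIF2AK4 had no fixed order: EIF2AK3 was higher in the 6 R2 libraries and EIF2AK4 in the other 6. Among the factors CEBPB had the highest mean, 37.2 FPKM, followed by CEBPG with 27.9, ATF6 with 15.5, ATF5 with 7.38, CEBPD with 3.41 and NUPR1 with 1.56. Neighbours in that order changed places in some libraries for each pair except ATF5 and CEBPD, where ATF5 was higher in 12 of 12. CEBPB exceeded CEBPG in 10 of 12 libraries, and both exceptions were KO2 with bortezomib. NUPR1 rested on the fewest reads, 28 to 385 per library, and CEBPD on 58 to 290.

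**Figure D1:**
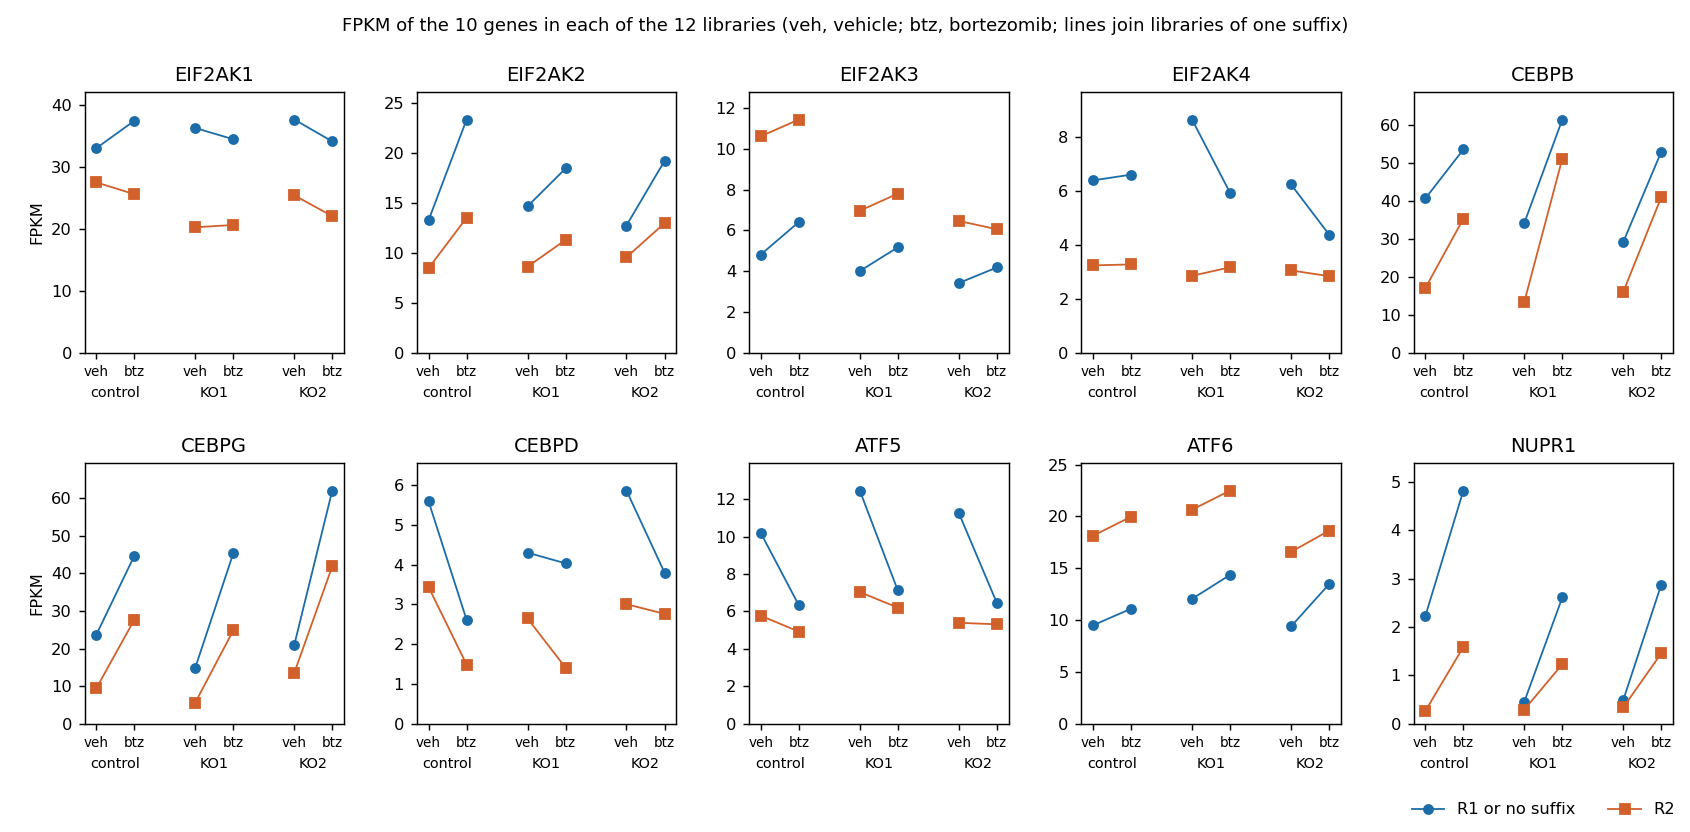
FPKM of the 10 genes (y axis, linear, a separate scale per gene) in each of the 12 libraries, by line and treatment (veh, vehicle; btz, bortezomib), with lines joining the vehicle and bortezomib libraries of one suffix. All 6 CEBPG lines rise, from 5.64 to 23.7 FPKM with vehicle to 24.8 to 62.0 with bortezomib, while those of EIF2AK1 stay between 20.3 and 37.7.

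CEBPG and NUPR1 rose with bortezomib in the mean of the 3 lines in the fits without and with the replicate block. NUPR1 met the minimum FPKM largely through the libraries where it was high. Without that minimum neither gene passed in the fit without the block. CEBPB, EIF2AK2 and ATF6 rose and CEBPD and ATF5 fell in the fit with the block, while EIF2AK1, EIF2AK3 and EIF2AK4 did not pass in either. The fit without the block called 2 of the 10 genes, both higher, where it called 11.6% of all genes tested. With the block it called 7 of the 10, 5 higher and 2 lower, where it called 54.9% of all genes. FPKM are shares of the assigned reads, so fewer molecules of 1 message per cell and more of all others cannot be told apart.

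CEBPG encodes a small C/EBP protein without an activation domain of its own, which acts as a partner of other zipper factors, ATF4 among them. The gene lies at chr19:33373330-33382686 on the plus strand and overlaps no other gene in GENCODE 29. Of the 7 genes with promoter windows in the RefSeq table (GRCh38.p14), it was the one that held the letters of a C/EBP-ATF element, TGATGNAA, in the 250 bases before a start site, on either strand. These letters were in 3.14% of all 35116 windows. The match, TGATGCAA, lies at chr19:33374071-33374078 on the plus strand, 42 bases before the second of the 2 RefSeq start sites, within the gene and outside the exons of GENCODE 29. A stretch just after this second start was not found in the GENCODE 29 transcripts of CEBPG, while that after the first start was. The match is shown in capitals below within chr19:33374041-33374108, because CEBPG had the largest change of the 10 genes in log2(FPKM + 1). With less shrinkage of low values NUPR1 changed more, as its values below show.
CEBPG: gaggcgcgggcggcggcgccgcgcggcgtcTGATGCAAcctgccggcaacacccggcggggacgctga
The other searches were for TGACGTCA, the cyclic AMP response element, in 1.65% of windows and in no window of these genes, and TGACGTGG, an ATF6 site, in 0.61% and likewise none. TTGCNNAA, a C/EBP half-palindrome, was in 9.05% of windows, and in 1 window each of EIF2AK3 and ATF5. A match of letters is a description of the sequence and says nothing of binding here.

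CEBPG was at 23.7 and 9.43 FPKM in the control line with vehicle, at 14.9 and 5.64 in KO1 and at 20.9 and 13.5 in KO2. With bortezomib it was at 44.7 and 27.7 FPKM in the control line, 45.3 and 24.8 in KO1 and 62.0 and 41.9 in KO2. Even the lowest bortezomib library, at 24.8 FPKM, lay above the highest vehicle library, at 23.7, so the 6 and 6 did not overlap. The share of all genes tested that separate in this way was not counted, so the separation alone does not set CEBPG apart. Within a line and suffix the FPKM ratio of bortezomib to vehicle was 1.89 to 4.40, with a median of 3.00. The log2 change in the mean of the 3 lines was 1.49 (SE 0.34, limma adjusted p = 0.0218), and with the block the SE was 0.12 and the adjusted p 1.45e-05. By line, with the block, CEBPG rose by 1.17 in the control line (limma adjusted p = 0.0032), by 1.75 in KO1 (0.000664) and by 1.54 in KO2 (0.00108). The control line call was lost without either of its R2 libraries, where the contrast rests on the remaining pair (log2 change 0.89). Without the block none of the 3 passed, at adjusted p of 0.471, 0.332 and 0.399 in limma. Leaving out 1 library without the block ended the mean call in 5 of 12 cases, the R2 control library with vehicle, the unnumbered control library with bortezomib, KO1 R1 and KO2 R1 with bortezomib and KO2 R2 with vehicle, at adjusted p of 0.0562 to 0.0674 in limma.

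NUPR1 is a small stress-induced nuclear protein that acts as a transcriptional cofactor and is a known target of ATF4. Its gene (chr16:28532708-28539174, minus strand) overlaps no other. With vehicle NUPR1 was at 2.23 and 0.264 FPKM in the control line, 0.457 and 0.294 in KO1 and 0.491 and 0.339 in KO2. Among these the unnumbered control library stood apart from the other 5 vehicle libraries, which lay below 0.5 FPKM. With bortezomib it was at 4.82 and 1.59 FPKM in the control line, 2.61 and 1.23 in KO1 and 2.88 and 1.46 in KO2. Only that vehicle library reached into the bortezomib range. The FPKM ratio was 2.17 to 6.03 over the 6 pairs, with a median of 5.02, the highest median of the 10 genes.

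On the log2(FPKM + 1) scale, which shrinks changes at such levels, NUPR1 rose by 1.04 in the mean of the lines (SE 0.29, limma adjusted p = 0.048). With the block the SE was 0.11 and the adjusted p 8.84e-05, and voom on the recovered reads with the block gave a log2 change of 2.05 (SE 0.18). The block called NUPR1 in each line, with 0.94 in the control line (limma adjusted p = 0.00722), 1.05 in KO1 (0.00542) and 1.13 in KO2 (0.00403). The call without the block was slight: it held in 2 of 12 fits that left out 1 library, those without the unnumbered control library with vehicle and without the R2 control library with bortezomib. With the block it held in 12 of 12 such fits. Under 6 other settings without the block NUPR1 was called in 3, at adjusted p of 0.033 to 0.123 in limma. The control line call was lost without an R2 control library, where the contrast rests on the remaining pair (log2 change 0.85). The calls in the KO lines were lost without the R1 bortezomib library in KO1 and without the R1 vehicle library in KO2.

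CEBPB encodes a C/EBP activator that pairs with ATF4 and with CHOP and is also a factor of inflammatory gene expression. It has 1 exon, at chr20:50190734-50192689 on the plus strand, with the antisense gene CEBPB-AS1 on the opposite strand. With vehicle CEBPB was at 40.7 and 17.1 FPKM in the control line, 34.2 and 13.4 in KO1 and 29.2 and 16.1 in KO2. With bortezomib it was at 53.6 and 35.4 FPKM in the control line, 61.5 and 51.2 in KO1 and 53.1 and 41.1 in KO2. Vehicle and bortezomib overlapped at 1 point, the unnumbered control library with vehicle above the R2 control library with bortezomib. All 6 pairs were higher with bortezomib, by FPKM ratios of 1.32 to 3.82. The log2 change in the mean of the lines was 1.04 (SE 0.33) and missed the threshold without the block (limma adjusted p = 0.0714), and with the block the SE was 0.15 and the adjusted p 0.00035. Without the block it passed after quantile normalization (limma adjusted p = 0.0281), after rescaling without mitochondrial genes, and when the unnumbered control library or the R1 library of KO1 with vehicle was left out. By line and with the block CEBPB rose by 1.34 in KO1 (limma adjusted p = 0.00532) and 1.07 in KO2 (0.015), and the 0.70 of the control line did not pass (0.0605). The KO1 call was lost without its R2 library with bortezomib, and the KO2 call without either of its vehicle libraries or its R2 library with bortezomib (limma adjusted p up to 0.116).

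CEBPD encodes the acute-phase member of the family and lies at chr8:47736909-47739086 on the minus strand, overlapping no other gene. With vehicle CEBPD was at 5.59 and 3.44 FPKM in the control line, 4.30 and 2.65 in KO1 and 5.86 and 3.00 in KO2. Bortezomib values were 2.61 and 1.49 FPKM in the control line, 4.03 and 1.41 in KO1 and 3.80 and 2.76 in KO2. CEBPD was lower with bortezomib in all 6 pairs, opposite to CEBPB and CEBPG, although the ranges of the treatments overlapped. The FPKM ratios ran from 0.433 in the R2 control pair to 0.937 in the R1 pair of KO1. CEBPD fell by 0.50 on the log2 scale in the mean of the lines with the block (SE 0.10, limma adjusted p = 0.00283), and the adjusted p was 0.236 without it. Of the single lines the block called the control line, where CEBPD fell by 0.85 (limma adjusted p = 0.00671). No call remained there when any of its 4 libraries was left out. Such a fit rests on the remaining pair of libraries, and the log2 changes of these pairs were -0.868 and -0.835.

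ATF5 encodes a zipper factor whose message, like that of ATF4, is translated preferentially when eIF2 alpha is phosphorylated. With vehicle ATF5 was at 10.2 and 5.77 FPKM in the control line, 12.5 and 7.04 in KO1 and 11.3 and 5.40 in KO2, and with bortezomib at 6.33 and 4.93, 7.12 and 6.21, and 6.47 and 5.32. All 6 pairs were lower with bortezomib. The ratios were further from 1 in the first libraries (FPKM ratios of 0.572 to 0.621) than in R2 (0.853 to 0.985), a difference that was not tested. ATF5 fell by 0.40 on the log2 scale in the mean of the lines with the block (SE 0.12, limma adjusted p = 0.0172), and the adjusted p was 0.313 without it. With the block and 1 library left out the call held in 7 of 12 fits, at adjusted p of 0.0101 to 0.0737 in limma, and was lost without either unnumbered control library, either R1 library of KO1 or the R1 vehicle library of KO2. The gene, at chr19:49928702-49933935 on the plus strand, is overlapped on the other strand by NUP62 and IL4I1. Whether reads were counted by strand is not given in the sources used here, so genes with such partners here could share reads with them. NUP62 had a log2 change of -0.24 (limma adjusted p = 0.0927 with the block).

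ATF6 lies at chr1:161766294-161964070 on the plus strand, with a pseudogene inside it on the same strand. With vehicle it was at 9.50 and 18.1 FPKM in the control line, 12.1 and 20.7 in KO1 and 9.39 and 16.6 in KO2, and with bortezomib at 11.1 and 20.0, 14.4 and 22.5, and 13.5 and 18.6. Each pair was higher with bortezomib, by FPKM ratios of 1.09 to 1.44, and the R2 libraries were above the others in each group. ATF6 rose by 0.22 on the log2 scale with the block (SE 0.08, limma adjusted p = 0.0391), with an adjusted p of 0.678 without it. This was the largest adjusted p of the 7 calls, and with the block the call held in 2 of 12 fits that left out 1 library, those without KO1 R2 with vehicle and without KO2 R2 with bortezomib. Over the 6 pairs of libraries, 5 of the 10 genes were higher in every pair, where 24.8% of all genes tested were, and 2 were lower in every pair, where 23.8% were.

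EIF2AK2 was the one kinase with a call for bortezomib against vehicle, in the fit with the block. That fit called 54.9% of all genes in the mean of the 3 lines, so a call alone does not set a gene apart. EIF2AK2 is known for its induction by interferon and lies at chr2:37099210-37157065 on the minus strand, with GPATCH11 on the opposite strand. With vehicle EIF2AK2 was at 13.2 and 8.46 FPKM in the control line, 14.6 and 8.60 in KO1 and 12.7 and 9.56 in KO2. With bortezomib it was at 23.3 and 13.5 FPKM in the control line, 18.4 and 11.3 in KO1 and 19.2 and 12.9 in KO2. Every pair was higher with bortezomib, by ratios of 1.26 to 1.76, while the R2 bortezomib libraries, at 11.3 to 13.5, did not exceed the highest vehicle library, at 14.6. The log2 change was 0.50 in the mean of the lines with the block (SE 0.08, limma adjusted p = 0.000718), and the adjusted p was 0.233 without it. The block called the control line, with 0.69 (limma adjusted p = 0.00579), and KO2, with 0.48 (0.0327), and KO1 did not pass, with 0.33 (0.102). With 1 library left out the control line call was lost in 2 of 12 fits, those without an unnumbered control library. These fits rest on the remaining R2 pair, with a log2 change of 0.62. The KO2 call was lost in 6 of 12, those without any 1 of the 4 KO2 libraries or either KO1 library with bortezomib. GPATCH11 moved the other way, with a log2 change of -0.56 (limma adjusted p = 0.000934 with the block).

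The other kinases gave no call for bortezomib. EIF2AK3 (chr2:88556741-88627576, minus strand, with antisense genes opposite) had FPKM ratios of 0.938 to 1.33 and a log2 change of 0.17 in the mean of the lines (SE 0.08, limma adjusted p = 0.0917 with the block). EIF2AK4 (chr15:39934146-40035591, plus strand) had ratios of 0.686 to 1.11, 3 of 6 pairs higher, and a log2 change of -0.14 (SE 0.11, limma adjusted p = 0.308 with the block). EIF2AK1 (chr7:6022244-6059230, minus strand, with AIMP2 and ANKRD61 opposite) had ratios of 0.868 to 1.13, 2 of 6 pairs higher, and a log2 change of -0.05 (SE 0.08, limma adjusted p = 0.623 with the block). A p over the threshold does not show that these messages kept their level.

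**Figure D2:**
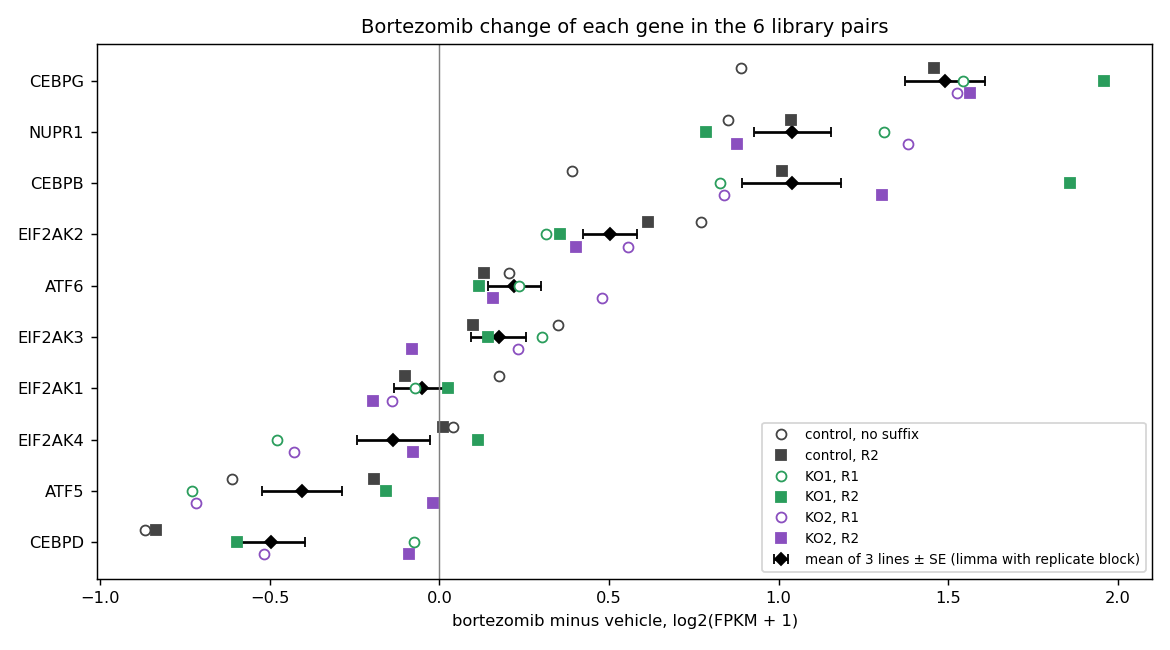
Bortezomib minus vehicle in log2(FPKM + 1) for each of the 10 genes (x axis), with 1 point per pair of libraries of the same line and suffix and a black diamond for the mean of the 3 lines ± SE from limma with the replicate block. The points of CEBPG, CEBPB, NUPR1, EIF2AK2 and ATF6 all lie above 0 and those of CEBPD and ATF5 all below it.

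Within single lines the fit without the block called none of the 10 genes. Of all genes it called 0.467% in the control line, against 0.238% for KO1 and 0.32% for KO2, and at an unadjusted p under 0.05 it passed 0, 2 and 1 of the 10. With the block 4 of the 10 were called in the control line, 3 higher and 1 lower, where 32.4% of all genes were called. KO1 had 3 of the 10 called, where 27.7% of all genes were, and KO2 had 4, where 27% were, all of them higher. Leaving out a control library with the block rests the control line contrast on the remaining pair of libraries. Fewer of the 10 and fewer of all genes were then called.

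The interaction term asks whether the knockout changed the response to the inhibitor. None of the 10 genes passed for the mean of the KO lines, and on log2(FPKM + 1) limma called 0% of all genes without and with the block. Over all genes 115 had an unadjusted p under 0.05 without the block and 1305 with it. Voom with the block called 0.927% of all genes and none of the 10, of which CEBPG and NUPR1 had an unadjusted p under 0.05. One of the 10, CEBPD, had an unadjusted p under 0.05 with the block and none without it. Its interaction was 0.53 (SE 0.22, limma adjusted p = 0.414), as the log2 changes of CEBPD were -0.85 (control line), -0.34 (KO1) and -0.30 (KO2). CEBPB had an interaction of 0.51 (SE 0.31) and CEBPG of 0.47 (SE 0.25), at adjusted p of 0.613 and 0.547 in limma with the block. For KO1 alone the interaction was called in 0% of all genes without the block and in 0.041% with it, and for KO2 alone in 0% by both fits, with none of the 10 among them and none of the 10 at an unadjusted p under 0.05.

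Knockout of NFE2L1 by itself was compared with vehicle. None of the 10 genes was called in KO1 or KO2 against the control line without the block, where 0.213% and 0.23% of all genes were called. With the block none was called either, where 5.95% and 4.91% of all genes were. At an unadjusted p under 0.05 limma passed none without the block, and with it 2 in KO1 (EIF2AK3 and CEBPG) and 1 in KO2 (EIF2AK3). Voom on the recovered reads with the block called 1, EIF2AK3 in KO2 (log2 change -0.74, SE 0.21, adjusted p = 0.029), where it called 8.53% of all genes. CEBPG had a log2 difference of -0.57 in KO1 against control with the block (SE 0.24, limma adjusted p = 0.207) and 0.22 in KO2 (SE 0.24, adjusted p = 0.664), so the KO lines lay on opposite sides of the control line.

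EIF2AK3, the kinase of the unfolded protein response, was lower in every KO library than in its control counterpart. With vehicle it was at 4.81 and 10.6 FPKM in the control line, 4.00 and 6.96 in KO1 and 3.42 and 6.46 in KO2. With bortezomib it was at 6.41 and 11.4 FPKM in the control line, 5.17 and 7.80 in KO1 and 4.18 and 6.06 in KO2. Each KO library lay below the control library of its treatment, R2 set against R2 and R1 against the unnumbered library, though the ranges overlapped across suffixes. EIF2AK3 was thus lower in 8 of 8 such comparisons, by FPKM ratios of 0.53 to 0.832, and was the one gene of the 10, where 8.44% of all genes were lower in 8 of 8. These comparisons share the control libraries.

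With bortezomib the mean of the KO lines lay below the control line by a log2 difference of -0.52 for EIF2AK3 without the block (SE 0.40, limma adjusted p = 1). With the block the difference was -0.66 (SE 0.15, adjusted p = 0.0287). This was the 1 call among the 10 genes with the block, where 7.66% of all genes were called, against none without it, where 0.164% were and none of the 10 had an unadjusted p under 0.05. The call was lost in 8 of 12 fits with the block that left out 1 library, at adjusted p of up to 0.152, among them those without any 1 of the 4 control libraries. This block compares genotypes mainly through the R2 libraries, as no control library is labelled R1 and no KO library lacks a suffix. In vehicle the differences with the block were -0.52 in KO1 (SE 0.16, limma adjusted p = 0.103) and -0.66 in KO2 (SE 0.16, adjusted p = 0.0552). The remaining genes were not uniform: NUPR1 was lower in 6 of 8 comparisons, with ratios of 0.205 to 1.28, EIF2AK4 in 7, EIF2AK1 in 6, and ATF5 was higher in 7. The shares of all genes at 6 or 7 of 8 were not counted. Both lowest NUPR1 ratios, 0.205 in KO1 and 0.220 in KO2, were against the unnumbered control library with vehicle. The R2 vehicle ratios were 1.11 and 1.28.

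The suffix separated each of the 10 messages in 1 direction in all 6 groups. EIF2AK3 and ATF6 were higher in R2 than in the other library of the same group in 6 of 6 groups, by FPKM ratios of 1.45 to 2.20 and 1.38 to 1.91, where 25.2% of all genes were higher in every group. The other 8 were lower in R2 in 6 of 6 groups, where 44.2% of all genes were. Ratios of R2 to the other library were 0.33 to 0.648 for EIF2AK4, 0.379 to 0.675 for CEBPG, 0.392 to 0.832 for CEBPB and 0.119 to 0.69 for NUPR1. For EIF2AK1 they were 0.558 to 0.833. The share of mitochondrial reads differed the same way between these libraries in every group, and its part in these differences was not tested.

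**Figure D3:**
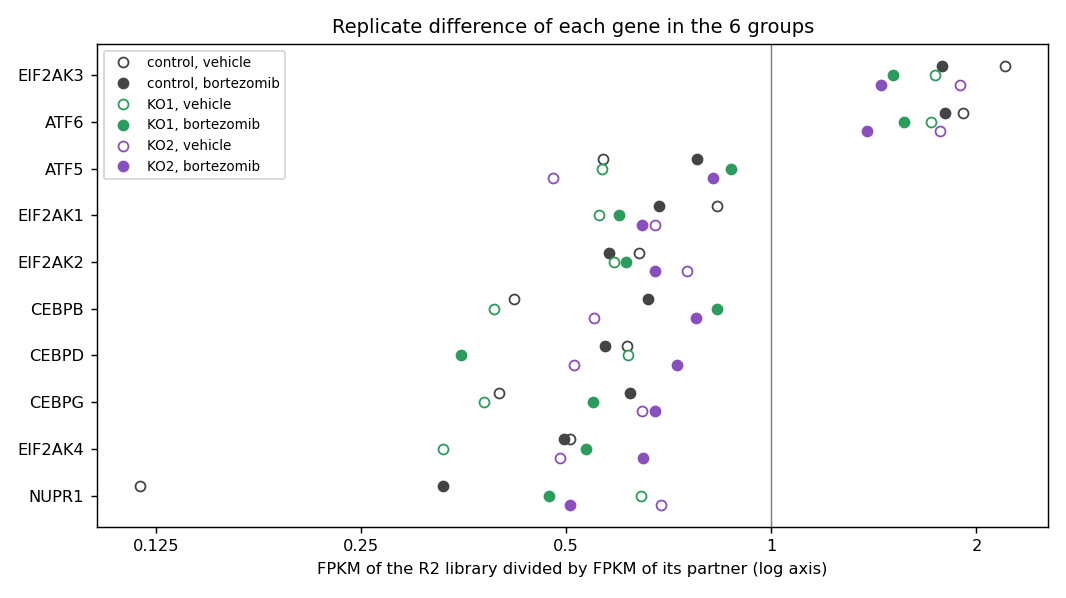
FPKM of the R2 library divided by that of the other library of the same group (x axis, log scale) for the 10 genes, with 1 point per group, coloured by line and filled by treatment. The points of EIF2AK3 and ATF6 lie above 1 and those of the other 8 genes below it, down to 0.119 for NUPR1 in the control line with vehicle.

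After the mean of the R2 libraries and the mean of the other libraries were taken off, the 10 genes were compared over the 12 libraries by Pearson's r of log2(FPKM + 1), as a description. The highest values were 0.875 for CEBPB and CEBPG, 0.862 for EIF2AK2 and NUPR1 and 0.842 for EIF2AK2 and CEBPG. The most negative were -0.816 for ATF5 and NUPR1, -0.803 for EIF2AK2 and CEBPD and -0.797 for EIF2AK2 and ATF5. These values share the treatment contrast and the libraries. The tested genes most like CEBPG were MEF2A (0.992), RSL24D1 (0.991) and PHLDB3 (0.984), and those most like EIF2AK2 were USP47 (0.988), TFDP2 (0.986) and ASAP1 (0.984). WNK2 (0.972) and TOP1MT (0.97) were among those most like CEBPB, and USP31 (0.969) and SLC1A4 (0.957) among those most like NUPR1. EIF2AK3 was most like IQGAP2 (0.941), YIPF5 (0.937) and C3orf18 (0.937), and ATF6 most like NEDD4L (0.956), RP11-360F5.3 (0.946) and ELOVL7 (0.945). ATF5 was closest to YLPM1 (0.945), BRAT1 (0.944) and ING2 (0.937), and CEBPD to SCLT1 (0.93), DPY19L1P1 (0.928) and PNPLA4 (0.924). The closest genes of EIF2AK4 were PSMB9 (0.909), ACAD9 (0.875) and SOCS3 (0.855), and EIF2AK1 had the lowest top value, with TIMM22 (0.855), Y_RNA (0.826) and NMB (0.821).

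The other genes of the pathway, 55 of which 53 were tested, were counted for the mean bortezomib change of the 3 lines. Without the block 14 were called, 13 higher and 1 lower, where 11.6% of all genes were called. With the block 32 were called, 23 higher and 9 lower, where 54.9% of all genes were, a share close to that of the list. The median log2 change over all genes tested was -0.01. Among the 11 ATF4 targets, 10 were tested and 6 were called, all higher, with a median log2 change of 1.58, and the block called 9. SESN2, a stress-inducible regulator of mTORC1, rose by 3.53 on the log2 scale (SE 0.17, limma adjusted p = 8.15e-06). TRIB3, a pseudokinase that limits ATF4 and CHOP, rose by 2.57, STC2 by 2.55, the glutathione-degrading enzyme CHAC1 by 2.40, DDIT4 by 2.06 and asparagine synthetase ASNS by 0.87. The ASNS call was slight (limma adjusted p = 0.0439). ASNS averaged 1.15 FPKM, close to the minimum, with 18 to 256 reads per library, and may have met it through the libraries where it was high. INHBE was below the minimum.

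Of the 11 other ATF, CREB and C/EBP factors 10 were tested. Without the block 3 were called, all higher, where 11.6% of all genes were called. With the block 6 were called higher and 1 lower, where 54.9% of all genes were called. The median log2 change was 0.45. ATF3 rose by 3.52 on the log2 scale (SE 0.21, limma adjusted p = 3.59e-05), DDIT3, which encodes CHOP, by 2.73 and CEBPA by 0.58. CEBPA averaged 1.52 FPKM and ATF3 ran from 0.213 to 27.3 FPKM. Both may have met the minimum through the libraries where they were high. ATF4 had a log2 change of 0.74 and was called with the block (limma adjusted p = 0.000192) and not without it (0.206). CEBPE was below the minimum. Of the C/EBP genes tested CEBPA, CEBPB and CEBPG were higher and CEBPD lower, each with a call in the fit with the block. That fit called 3290 of all genes higher and 3400 lower, and a pattern of the C/EBP genes was not tested.

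Of the eIF2 alpha phosphatase genes PPP1R15A (GADD34), the stress-induced targeting subunit, rose by 2.90 on the log2 scale (SE 0.21, limma adjusted p = 0.000107) and was the 1 of 5 called without the block. With the block PPP1R15B, the constitutive subunit, fell by 0.28 (limma adjusted p = 0.0227), and the median of the list was 0.04. None of the 8 eIF2 and eIF2B subunit genes was called without the block. With it EIF2S2 (0.86) and EIF2S3 (0.34) were called higher and EIF2B1 (-0.67) lower, with a median of 0.14. Of all genes 11.6% were called without the block and 54.9% with it.

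Of 10 regulators of the kinases HSPA5 and OMA1 were called without the block, where 11.6% of all genes were called. HSPA5 (BiP), the chaperone that holds EIF2AK3 and ATF6 inactive, rose by 1.31 on the log2 scale (SE 0.32, limma adjusted p = 0.0281). OMA1, the mitochondrial protease upstream of EIF2AK1, fell by 0.69 (SE 0.15, limma adjusted p = 0.018). The block called 2 higher and 4 lower, again where it called 54.9% of all genes, and the median log2 change was 0.08. Among 11 genes of ATF6 processing and its targets 3 were called without the block, all higher. They were HERPUD1 with 1.37, HSPA5 with 1.31 and the transcription factor XBP1 with 1.30. The block called 4 higher and 2 lower, close to its share of all genes, and the median was 0.19. The proteases MBTPS1 and MBTPS2 that cut ATF6 had log2 changes of -0.15 and -0.35, of which the block called the second (limma adjusted p = 0.00445).

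**Figure D4:**
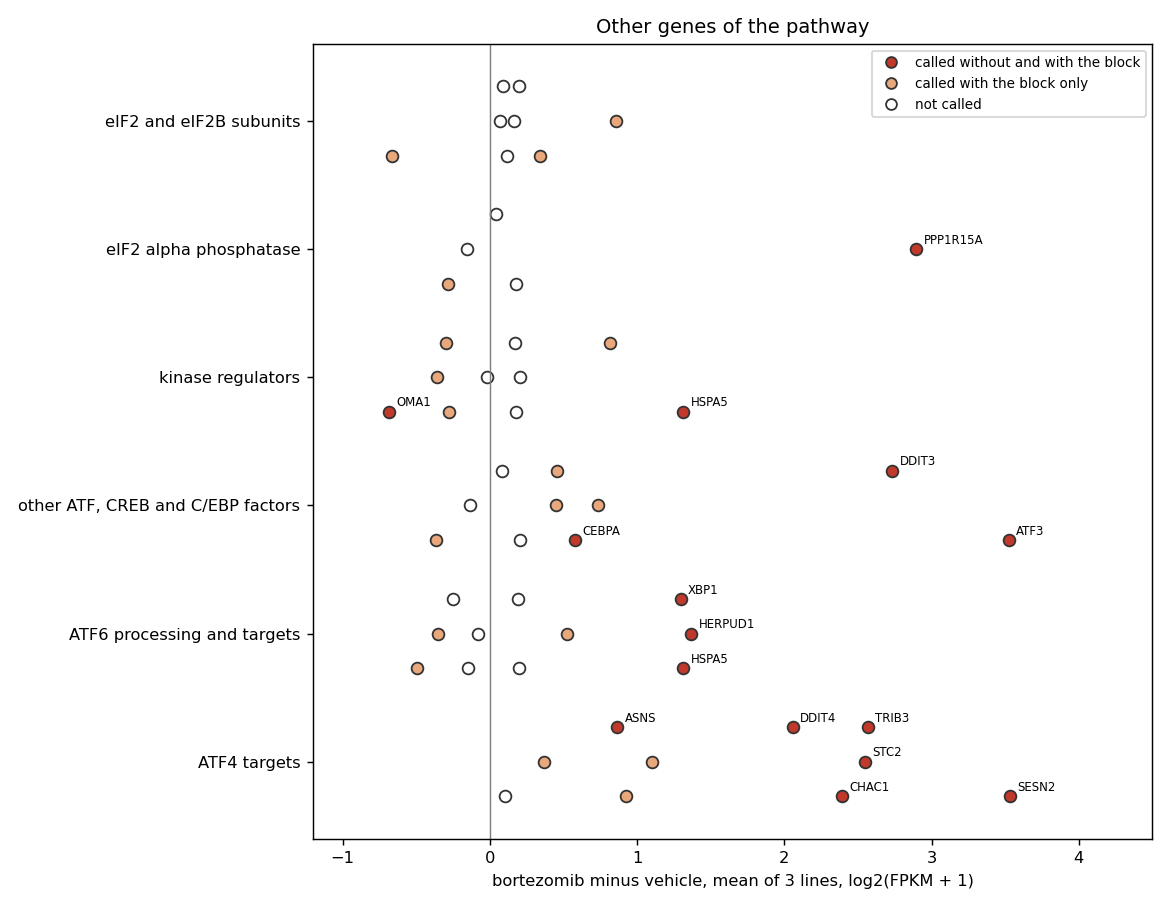
Log2(FPKM + 1) change with bortezomib in the mean of the 3 lines (x axis) for the 53 tested genes of the 6 pathway lists (rows, points spread vertically for legibility), coloured by whether limma called them without and with the replicate block. The 13 genes called higher without the block are named and reach 3.53 for SESN2, and OMA1 is the 1 called lower. HSPA5 stands in 2 lists.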

How the data were processed

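RNA-seq of 12 A549 libraries was analysed from 1 deposited table of FPKM per gene and library, with gene lengths and positions. The submitters' processing notes name CASAVA, STAR 2.5, HTSeq 0.6.1, DESeq2 and the build hg19, without their roles. How the authors made FPKM, the annotation and the strand setting are not given in the sources used here. The table's positions differ from that build: all 58676 IDs were in GENCODE 29 (GRCh38) and 95.2% of genes, including the 10 reported here, had the same position there, so coordinates are given as GRCh38. Depth was recovered from FPKM times length, which came to whole reads for 100% of values.

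The test was limma 3.58.1 (R 4.3.3; lmFit, contrasts.fit, eBayes with trend) on log2(FPKM + 1), with 1 mean per group, all 12 libraries and no replicate term, over the 12194 genes (20.8%) that averaged at least 1 FPKM, adjusted by Benjamini-Hochberg and called under 0.05. The alternative with a replicate block used the title suffix, with the unnumbered control libraries as a level of their own. Leaving out a control library in that fit leaves a single pair for the control line, so a lost call there can reflect lost replication. Deviations of same-suffix libraries from their group means correlated at r = 0.696 to 0.89 (median 0.811) in 15 of 15 pairs of groups, so the suffix pairs the libraries by the data, not by a label. Alternatives were a pseudocount of 0.1, no filter, other scalings, voom and leaving out each library. Alternatives that combine the block with scalings or left-out libraries were chosen after seeing the data.

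The 10 genes, the 6 pathway lists, the markers and the motifs were chosen with earlier results of these data known. All 10 genes were described. From each list the genes called without the block were named, else the 3 with the largest absolute change, and per gene the 3 tested genes with the highest Pearson r. Some genes under these rules are not reported here. Genes on the opposite strand, and list genes named beyond this rule, were chosen after their values were seen. Promoter windows are from RefSeq (GRCh38.p14), 11 windows for 7 of the 10 genes. The fits were also run on simulated data with the same replicate difference in every group and changed genes in a single group. That setting is simpler than these data, so it does not show how the fits behave here. Python 3.11.15, numpy 2.4.6, pandas 2.3.3 and matplotlib 3.10.9 were used.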

Additional observations from a re-analysis of the deposited data

Results flagged for a closer look

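4 differences were noted because every pair of libraries moved one way in 1 group and the opposite way in another. Each group has 2 pairs. The share of all genes tested with such a difference was not counted, so these 4 are a description only. Some of the moves were small, such as a log2 change of 0.012 for EIF2AK4 in the R2 control pair. For ATF6 the first KO2 library with vehicle differed from its control counterpart by -0.016. EIF2AK4 was higher with bortezomib in both control pairs (mean log2 change 0.03) and lower in both KO2 pairs (-0.25), a difference of -0.28 whose interaction did not pass (limma adjusted p = 0.941 with the block). CEBPB was lower in KO1 than in the control line with vehicle (-0.28) and higher with bortezomib (0.36), a difference of 0.64 (limma adjusted p = 0.601 with the block). EIF2AK2 was higher in KO1 than in the control line with vehicle (0.08) and lower with bortezomib (-0.28), a difference of -0.36 (limma adjusted p = 0.594 with the block). All 3 interactions had an adjusted p of 1 without the block. With vehicle ATF6 was higher than the control line in both KO1 libraries (0.25) and lower in both KO2 libraries (-0.07), a difference of 0.32 that was not tested.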

How the results depend on the processing

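For the 19 results in which 1 of the 10 genes was called without or with the replicate block, 703 values under alternatives kept their direction and 0 reversed. With the block 132 of 133 values passed the threshold, and without it 9 of 114. The 19 results were chosen by their calls in these same data, and the fit with the block by suffix is among the settings with it. These rates and the shared direction therefore follow in part from that choice. For the mean bortezomib change the count of the 10 genes called was 2. Without the block it was 0 without the filter on low values or rescaled to a common sum, 3 rescaled without mitochondrial genes and 2 under the other 3 settings, and with the block 7 under 6 of 7 settings and 6 when also rescaled to a common sum. Leaving out 1 library gave 0 to 3 without the block and 5 to 8 with it. In single lines the count was 0 without the block. With it the count was 4 or 5 in the control line (1 to 5 with 1 library left out), 3 in KO1 (2 to 3) and 4 in KO2 (1 to 4). For the KO lines against control in bortezomib the count was 0 without the block and 1 with it (0 to 1), and in KO2 with vehicle 1 only by voom with the block. The interaction count was 0 under each setting run. Listed pathway genes numbered 14, with 11 to 15 under the other settings without the block and 32 to 35 with it. By block setting they numbered 32 for the suffix alone, for the pseudocount of 0.1, for the common sum and without mitochondrial genes, 33 with R1 and the unnumbered libraries as 1 level, 34 with voom and 35 with quantile normalization. Where left-out libraries ended a call the cause was not tested. NUPR1 and CEBPD rest on few reads, which limits their precision.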

Other observations

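The regulators of the kinases did not move one way with bortezomib in the fit with the replicate block. GCN1, which activates EIF2AK4, and IMPACT, which inhibits it, were both called lower, by log2 changes of -0.36 and -0.30 (limma adjusted p = 0.00708 and 0.0158). DNAJC3, a chaperone known to inhibit EIF2AK2 and EIF2AK3, was called higher, by 0.82 (limma adjusted p = 9.03e-05), and TARBP2, an inhibitor of EIF2AK2, was called lower, by -0.27 (0.0251). None of these 4 was called without the block. The same fit called 54.9% of all genes, and 6 of the 10 regulators is close to that share.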
